A study of Mus musculus with 18 samples.

Results

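Trim28, Setdb1, Zfp57, Zfp445, Smchd1, Atrx and Daxx encode 7 cofactors that keep imprinted regions and retroelements silent in the mouse. They were taken by gene symbol from the feature tables, where each symbol matched 1 of 31053 mouse genes, and their raw UMIs were summed over the cells of each embryo and of each cell class. A UMI (unique molecular identifier) is a barcode that marks 1 captured RNA molecule, and levels are given as CPM (counts per 1000000), the share of the UMIs of the same library or class. The data are single-cell RNA sequencing libraries of whole embryos at embryonic day 8.5, 18 libraries each labelled as 1 embryo, from natural matings of heterozygous parents on the 129S4/SvJae background that were genotyped by PCR on tissue of the ecto-placental cone. By their labels 7 were Wildtype (WT), 3 were Dnmt1 null (Dnmt1 KO), 4 were Dnmt3a null (Dnmt3a KO) and 4 were Dnmt3b null (Dnmt3b KO), of which 2 shared most of their cell barcodes and were counted as 1, which leaves 17 replicates. DNMT1 copies DNA methylation at replication, whereas DNMT3A and DNMT3B lay it down anew, so the comparison of each KO group with WT asked how the cofactors were expressed in embryos labelled as null for 1 of the methyltransferases. The nulls act in every cell of the embryo and its membranes, so a change in a class may begin in another class.

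The 7 genes fall into 3 working groups. KRAB zinc finger proteins bind DNA by sequence, and among them ZFP57 and ZFP445 bind the methylated allele of imprinting control regions. They recruit TRIM28 (also called KAP1), a scaffold protein that brings in SETDB1, the methyltransferase that trimethylates lysine 9 of histone H3, and through these proteins DNA methylation is kept at imprinted regions while the rest of the genome is demethylated in the early embryo. SMCHD1 is a non-canonical SMC protein that keeps genes silent on the inactive X chromosome and at some imprinted clusters. ATRX is a chromatin remodeller and DAXX a histone chaperone; together they place the histone variant H3.3 at telomeres, pericentric repeats and retroelements.

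In GRCm38 coordinates Trim28 (ENSMUSG00000005566) lies on chromosome 7 at 12999114 to 13031035, Setdb1 (ENSMUSG00000015697) on chromosome 3 at 95323525 to 95357202, Zfp445 (ENSMUSG00000047036) on chromosome 9 at 122844529 to 122866006 and Atrx (ENSMUSG00000031229) on chromosome X at 105797615 to 105929403. The other 3 are on chromosome 17, Daxx (ENSMUSG00000002307) at 33909414 to 33915590, Zfp57 (ENSMUSG00000036036) at 37001163 to 37010635 and Smchd1 (ENSMUSG00000024054) at 71344489 to 71475343. Gm4707 lies on the same strand within Smchd1, so reads in that stretch are uncertain.

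The promoters of Zfp57 and Trim28 are shown because Zfp57, the gene with the clearest change below, had the fewest CpG dinucleotides around its starts among the 7 genes, though near the median of all genes, and Trim28, its direct partner, had more. Each window holds 300 bases, 250 before and 50 after a RefSeq transcript start in GRCm38.p6, on the plus strand, with each CpG, the dinucleotide that the DNMT enzymes methylate, in capitals. The windows are chr17:37000913-37001212 for Zfp57 and chr7:13023902-13024201 for Trim28.
Zfp57: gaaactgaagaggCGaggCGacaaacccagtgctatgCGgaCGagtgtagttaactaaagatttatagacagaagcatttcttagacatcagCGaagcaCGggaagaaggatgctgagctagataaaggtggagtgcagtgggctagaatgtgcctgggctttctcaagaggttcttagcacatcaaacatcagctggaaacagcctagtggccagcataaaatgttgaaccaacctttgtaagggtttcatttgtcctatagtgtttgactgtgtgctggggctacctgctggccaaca
Trim28: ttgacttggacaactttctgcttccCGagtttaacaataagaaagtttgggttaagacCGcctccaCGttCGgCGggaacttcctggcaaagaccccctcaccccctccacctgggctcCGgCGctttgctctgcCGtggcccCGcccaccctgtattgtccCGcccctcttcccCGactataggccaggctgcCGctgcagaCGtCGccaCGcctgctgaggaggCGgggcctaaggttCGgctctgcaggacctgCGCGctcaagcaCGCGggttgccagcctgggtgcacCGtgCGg
The Zfp57 window printed held 6 CpGs and the windows at its 2 other starts held 4 and 9, against a median of 7 over 32851 windows of 27025 genes (quartiles 3 and 20). Zfp445 had 10, Atrx 11, Setdb1 15, Trim28 23 and Smchd1 40 CpGs, and the Daxx windows had 32 to 33. Among the 7 genes the sequence TGCCGC, the core letters of the motif that ZFP57 binds when methylated, was found on either strand only in the Trim28 window, and 11.6% of all windows held it, so this match is a description of the letters and not a binding site.

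Several facts of the libraries bear on the values below. After filters and removal of doublets 108037 cells were kept, 1361 to 12598 per library, with 36504510 to 233594354 UMIs per library. This total counts the 9549 cells of Dnmt3b KO 1 and the 9405 of Dnmt3b KO 2 separately, so shared barcodes are in it 2 times. Dnmt1 was at 14.9 to 15.7 CPM in the Dnmt1 KO libraries against 83.3 to 115.6 in WT, and Dnmt3a was at 7.46 to 11.8 CPM in the Dnmt3a KO libraries against 23.1 to 35 in WT. Dnmt3b was at 54.6 to 68.4 CPM in the libraries labelled Dnmt3b KO, within the WT range of 35.5 to 87.5; a 3' tag outside the deleted part checks nothing. In this group Dnmt3a reached 32.1 and 32.0 CPM in libraries 1 and 2 but no more than 15.1 in 11 and 7.57 in 12. The libraries labelled Dnmt3b KO 1 and 2 shared 12249 cell barcodes, 86.5% and 79.3% of theirs, where the next of the 153 pairs of libraries shared 133. They were therefore counted as 1 replicate by their rounded mean. Of the 9149 shared barcodes with at least 1500 UMIs in both, 4869 held more UMIs in library 1 and 4280 in library 2. The ratio of the larger to the smaller count ran from 1.79 to 2.25 (5th to 95th percentile). Whether these libraries hold the same cells or the same embryo was not tested. Tests of the members in Dnmt3b KO with libraries 1 and 2 kept apart are not given. A reference that joins the human and the mouse genome was used to count WT 1, Dnmt3a KO 1 and 13 and Dnmt3b KO 11, and another version of Cell Ranger to count Dnmt3b KO 12. By Y-linked genes 1 of 7 WT embryos was male, against 3 of 3 Dnmt1 KO, 4 of 4 Dnmt3a KO and 2 of 3 Dnmt3b KO replicates, so sex and genotype are partly confounded. The median mitochondrial share of a cell was 3.13% to 3.33% in the Dnmt1 KO libraries and 1.85% to 2.59% in WT, without overlap, and its part in the Dnmt1 KO results was not tested. Cells were placed in 18 classes named from marker genes, and cells of clusters that could not be named made up 23.7% of WT, 24.7% of Dnmt3a KO, 28.5% of Dnmt3b KO and 36.1% of Dnmt1 KO cells on average per library.

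In WT embryos the mean level of each of the 6 cofactors other than Zfp57 spanned 1.69-fold to 5.01-fold over the 16 classes with enough cells. Zfp57 was more strongly patterned. The share of free RNA in the droplets was not estimated, so a low level does not show expression in that class. These class levels are a description, because the classes were built from the same cells. Classes next to each other in the order are said to differ where their means lay further apart than the larger of their SDs.

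Zfp57, the imprint-binding zinc finger protein, was highest in endothelium at 35.3 CPM ± 7.38 (SD, n = 7 embryos). ExE (extra-embryonic) mesoderm followed at 22.8, pharyngeal mesoderm at 19.6 and cardiomyocytes at 17.8 CPM. The order was then allantois at 15.7 (n = 5), notochord at 14.3 (n = 4), somitic mesoderm at 12.2, gut at 11, ExE endoderm at 10.7 ± 4.48, presomitic mesoderm at 9.90 and neuromesodermal progenitors (NMP) at 9.59 CPM. Neural and surface ectodermal classes were low, with 6.23 CPM in forebrain and midbrain, 5.82 in hindbrain and spinal cord, 5.82 in neural crest (n = 6) and 4.50 in surface ectoderm. Erythroid cells held almost none, 0.384 CPM ± 0.274 (SD, n = 7), from 0 to 25 UMIs per embryo. At so few molecules no fold against the other classes is given. Of the 15 neighbouring pairs in this order 3 differed, namely endothelium and ExE mesoderm, NMP and forebrain and midbrain, and surface ectoderm and erythroid cells.

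The members of the general silencing machinery were ordered differently. Trim28, the scaffold, ran from 269 CPM in surface ectoderm to 87.1 in ExE endoderm, a ratio of 3.09, with 4 of 15 neighbours that differed. Setdb1, the H3K9 methyltransferase, ran from 50.9 CPM in forebrain and midbrain to 17.9 in ExE endoderm, a ratio of 2.84, and Zfp445, the other imprint-binding zinc finger protein, from 48.5 in forebrain and midbrain to 17.7 in ExE endoderm, a ratio of 2.73. For these genes 1 and 2 of the 15 neighbours differed, so most of the order between the extremes is within the spread of embryos. ExE endoderm was thus the lowest class for all 3. CPM is a share of the UMIs of a class, so a gene also reads lower where other genes take more of them. The share of all genes that were lowest in ExE endoderm was not counted, so this cannot be called particular to these genes or those below.

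Atrx, the remodeller, ran from 306 CPM in notochord to 61.1 in ExE endoderm, a ratio of 5.01 with 2 of 15 neighbours that differed. Daxx, its chaperone partner, ran from 33.2 CPM in neural crest to 17.2 in ExE endoderm, a ratio of 1.93, and Smchd1 from 184 in pharyngeal mesoderm to 109 in erythroid cells, a ratio of 1.69. No neighbours differed for Daxx or Smchd1.

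**Figure D1:**
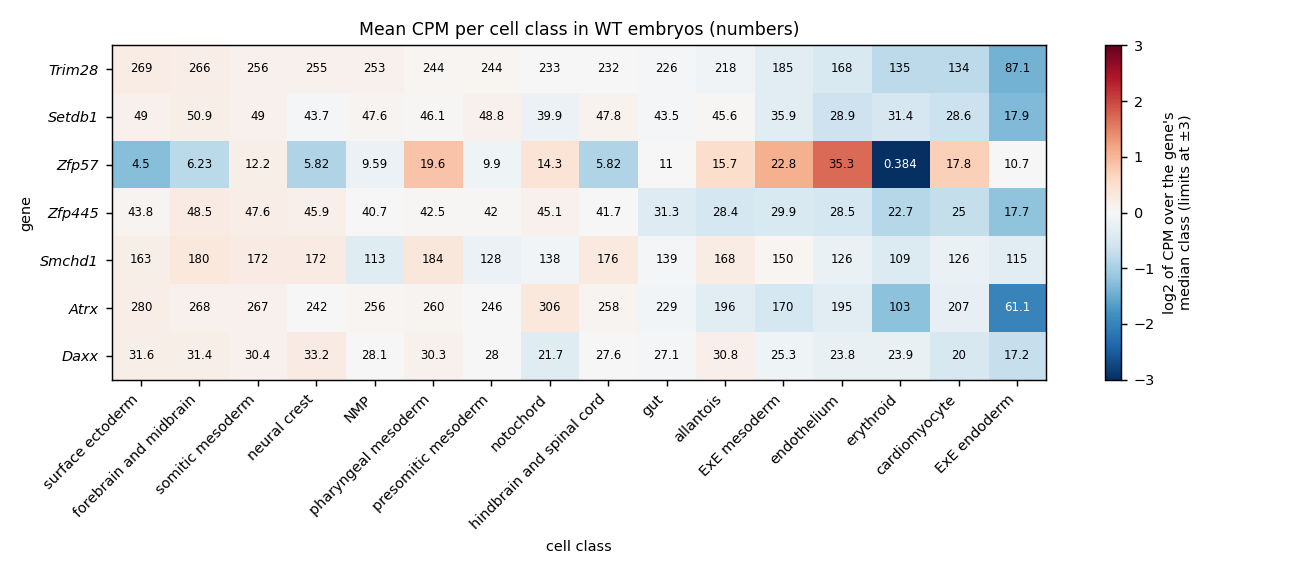
Heat map of the 7 genes (vertical axis) in 16 cell classes of WT embryos (horizontal axis). The number in each cell is the mean CPM over WT embryos with at least 25 cells of the class, and the colour is its log2 ratio to the gene's median class, limited to ±3; the Zfp57 colour in erythroid cells rests on 0 to 25 UMIs per embryo. Zfp57 runs from 35.3 CPM in endothelium to 0.384 in erythroid cells, whereas the other 6 genes span 1.69-fold to 5.01-fold.

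The genes whose class pattern was most like each member were found by Pearson's r of log2(CPM + 1) over the 16 class means, which share libraries and depth, among genes with a mean of at least 10 CPM. For Zfp57 they were Wwtr1 (r = 0.940), Serpinh1 (0.932) and Cd81 (0.930). For Trim28 they were Srsf10 (0.977), Brca2 (0.977) and Wdr33 (0.976), for Setdb1 Gtf3c4 (0.969), Snrnp200 (0.968) and Trim28 itself (0.966), and for Zfp445 Med18 (0.970), Etaa1 (0.966) and Nelfa (0.962). Atrx was closest to Eif4g3 (0.986), Rnf168 (0.978) and Cux1 (0.978), Daxx to Lsm7 (0.959) and Cherp (0.956), and Smchd1 to Tmem209 (0.879), Fzd7 (0.825) and Ubqln4 (0.810). Between members r was 0.966 for Trim28 with Setdb1, 0.932 for Trim28 with Zfp445 and 0.906 for Trim28 with Atrx. The r over all pairs of genes is not given, so these values have no background beside them. Zfp57 had an r of -0.168 to 0.201 with the other 6 genes, so its class pattern was unlike that of its partners.

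In Dnmt1 KO embryos Zfp57 was lower than in WT when all cells of an embryo were summed, and none of the other 6 cofactors passed the test. The 3 Dnmt1 KO embryos held 943, 839 and 565 Zfp57 UMIs, or 9.08, 6.42 and 7.26 CPM. WT embryos 1 to 7 were at 9.83, 9.17, 10.2, 11.8, 12.6, 11.1 and 8.98 CPM. Dnmt1 KO 1 lay just inside the WT range and the other two embryos below it. The log2 fold change was -0.40 (SE 0.12, edgeR quasi-likelihood test, adjusted p = 0.014). In all, 36.9% of the 18647 genes tested passed in this comparison, and 17.7% passed as lower, so 1 of 7 members is no more than the background. The study's own rule asks for an adjusted p under 0.01 with a change of at least 1 on the log2 scale. Of all genes 14.2% met it and no member did, while edgeR gave 1 member (Zfp57) an unadjusted p under 0.05. Here and below, counts at an unadjusted p stand without the share of all genes at that level. They are descriptions and not results about the members. The whole-embryo call held under 27 of 31 alternatives. It was lost, among others, without Dnmt1 KO 2 (-0.31, adjusted p = 0.095), with Y-linked expression as a covariate (-0.42, adjusted p = 0.090) and after thinning all libraries to 1 depth (-0.35, adjusted p = 0.087). Many of the alternatives only left out or separated libraries of Dnmt3a KO or Dnmt3b KO, which kept the Dnmt1 KO and WT counts as they were. Such fits could hardly lose a Dnmt1 KO call, so these tallies, here and below, do not count independent checks.

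The other members of this group changed little in the sum. Trim28 was at 177 CPM ± 30.6 (SD, n = 3) against 198 ± 21 (n = 7) in WT, and Setdb1 at 38.1 ± 1.43 against 39.4 ± 5.02. Zfp445 was at 32.9 ± 2.70 against 33.9 ± 4.95 and Daxx at 23.2 ± 2.25 against 26.3 ± 2.55. Smchd1 was at 150 ± 7.50 against 143 ± 18.1 and Atrx at 182 ± 20.9 against 193 ± 34.5. Their log2 fold changes ran from -0.10 for Daxx to 0.15 for Smchd1, with adjusted p of 0.25 to 0.96, and the ranges of the groups overlapped for each gene.

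**Figure D2:**
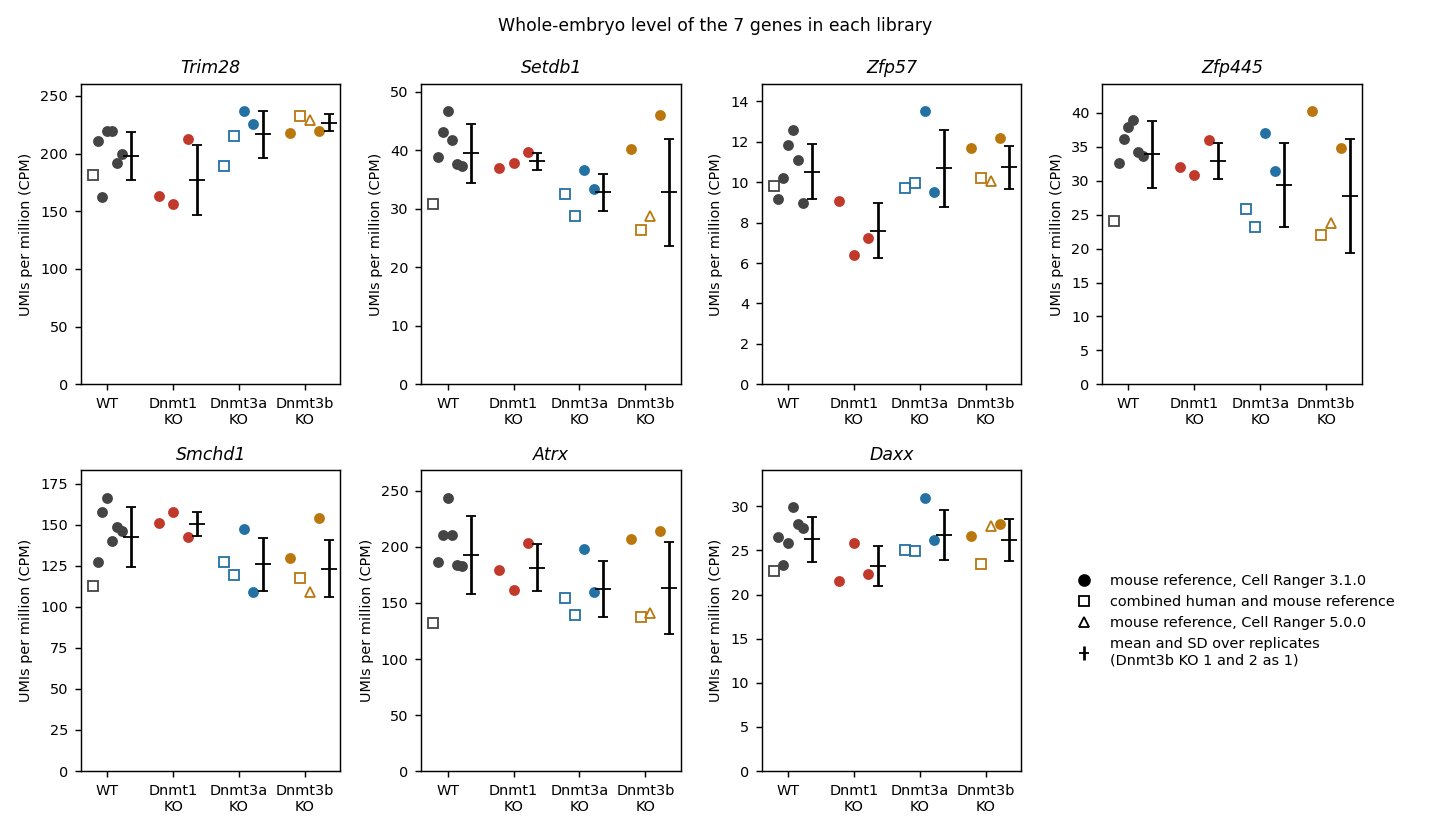
Level of each member (CPM, linear axis) in the 18 whole-embryo libraries by group. Filled circles are libraries counted on the mouse reference, open squares those counted on the combined reference and the open triangle the library counted with the other Cell Ranger version; dashes and bars are the mean and SD over replicates (WT 7, Dnmt1 KO 3, Dnmt3a KO 4, Dnmt3b KO 3). Zfp57 sits at 6.42 to 9.08 CPM in Dnmt1 KO and at 8.98 to 12.6 in WT, while open squares sit low for Atrx, Zfp445 and Setdb1.

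A fall in the sum of an embryo can come from fewer cells of a class or from less RNA per cell, which cannot be told apart there, and the makeup of Dnmt1 KO embryos was far from that of WT. They held 0 to 1 cells of the forebrain, hindbrain, neural crest, cardiomyocyte, NMP and surface ectoderm classes each, and 80, 930 and 104 cells of ExE ectoderm, a class with 124 cells in WT 2 and at most 1 in the other WT embryos. ExE ectoderm cells of the Dnmt1 KO embryos held 7.64, 4.03 and 6.72 CPM of Zfp57, and those of WT 2 held 7.66 CPM, from 23 UMIs. The members were therefore compared within the 5 classes that held at least 25 cells in each Dnmt1 KO embryo and in at least 3 WT embryos: ExE endoderm, ExE mesoderm, endothelium, gut and pharyngeal mesoderm.

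The paper reports a minor developmental delay of Dnmt1 null embryos, which it matched to an earlier reference stage than most WT embryos. The classes compared here were therefore not matched for stage, and the part of stage in the values was not tested. Within classes Zfp57 was lower in Dnmt1 KO in 4 of the 5. Of all 35 gene and class pairs of the members 13 passed, 7 lower and 6 higher, against 27.9% of all such pairs over the tested genes (14.2% lower, 13.7% higher), and 16 had an unadjusted p under 0.05. The median log2 fold change over the 35 pairs was 0.11, and -0.78 for the 5 of Zfp57. With Y-linked expression as a covariate 4 of the 35 pairs passed in place of 13. The share of all pairs called in that fit is not given, so this fall cannot be called particular to the members.

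In pharyngeal mesoderm, the heart and head mesoderm of the embryo, Zfp57 was at 10.5, 9.68 and 8.71 CPM in the 3 Dnmt1 KO embryos and at 16.7 to 27.0 in WT with a median of 18.4. The groups did not overlap, and the log2 fold change was -0.87 (SE 0.14, adjusted p = 0.00014). In endothelium it was at 21.6, 19 and 15.2 CPM against 24.9 to 45.6 in WT with a median of 37.9, again without overlap (-0.79, SE 0.17, adjusted p = 0.0014). These 2 calls held under each of the 28 alternatives tried. The share of all gene and class pairs without overlap was not counted. Lack of overlap, here and below, is therefore a description and not a result about the members.

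In ExE mesoderm Zfp57 was at 17.2, 15.7 and 11.6 CPM against 17 to 25.7 in WT, where only WT 1 lay as low as a Dnmt1 KO embryo (-0.52, SE 0.12, adjusted p = 0.0028). In gut, the definitive endoderm tube, it was at 5.93, 7.66 and 4.10 CPM, from 7 to 12 UMIs per embryo, against 7.33 to 12.8 from 27 to 104 UMIs in WT (-0.78, SE 0.25, adjusted p = 0.030). The ExE mesoderm call held under 26 of 27 alternatives. The gut call rests on few molecules, held under 21 of 26, and was lost by DESeq2 (-0.77, adjusted p = 0.056), with Y-linked expression as a covariate (-0.69, adjusted p = 0.14), and without Dnmt1 KO 1 (-0.77, adjusted p = 0.11) or without Dnmt1 KO 3 (-0.62, adjusted p = 0.15). In ExE endoderm, the yolk sac endoderm, it was at 8.21, 5.63 and 4.44 CPM against 6.03 to 17.9 and did not pass (-0.71, SE 0.30, adjusted p = 0.086).

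**Figure D3:**
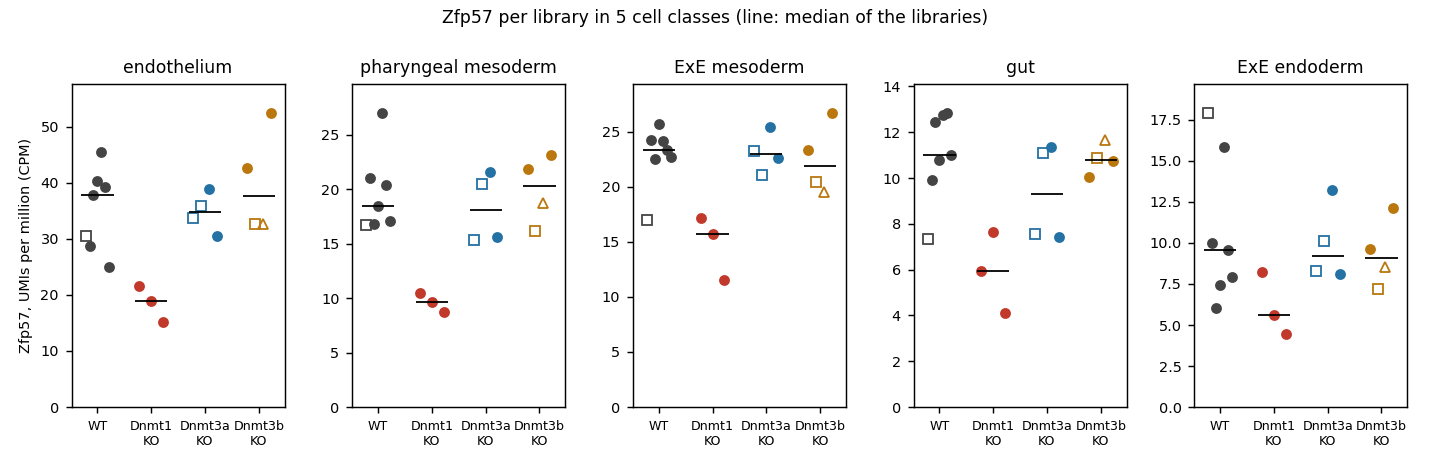
Zfp57 level (CPM, linear axis) per library in 5 cell classes and 4 groups. Each point is 1 library and the line is the median of the group. In pharyngeal mesoderm and endothelium the 3 Dnmt1 KO embryos lie below every WT embryo, at 8.71 to 10.5 and 15.2 to 21.6 CPM, while Dnmt3a KO and Dnmt3b KO embryos are spread around the WT values.

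Zfp445, which binds imprinting control regions as ZFP57 does, was higher in ExE endoderm of Dnmt1 KO embryos. The 3 embryos were at 23.1, 24.7 and 27.7 CPM and WT at 14.1 to 20.4, without overlap (0.52, adjusted p = 0.0081), a call that held under 25 of 28 alternatives. It was lost without Dnmt1 KO 3 (0.44, adjusted p = 0.055), with Y-linked expression as a covariate (0.36, adjusted p = 0.27) and in the single cluster described below. The estimate was above 0 in 5 of 5 classes, with no call in the other four.

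Setdb1 and Trim28 act downstream of both zinc finger proteins, and each passed in 1 class. Setdb1 was at 22.6, 21.5 and 20.3 CPM in ExE endoderm against 15 to 20.9 in WT, where 1 KO embryo lay inside the WT range (0.29, adjusted p = 0.034), and its estimate was above 0 in 5 of 5 classes. Trim28 was at 185, 170 and 164 CPM in gut against 196 to 251 in WT, without overlap (-0.27, adjusted p = 0.046), while its estimate was above 0 in 3 classes and below 0 in 2. The Setdb1 call held under 16 of 28 alternatives and the Trim28 call under 11 of 26.

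Smchd1, the X chromosome silencing factor, was at 147, 153 and 134 CPM in ExE endoderm against 89.4 to 130 in WT, without overlap (0.35, adjusted p = 0.037). In gut it was at 175, 156 and 135 CPM against 116 to 154, with 1 KO embryo inside the WT range (0.28, adjusted p = 0.044). The estimate was above 0 in 5 of 5 classes; these calls held under 16 of 28 and 13 of 26 alternatives.

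Atrx, which is itself X-linked, was at 84.1, 94.4 and 73.8 CPM in ExE endoderm against 40.9 to 74 in WT, with 1 KO embryo just inside the WT range (0.50, adjusted p = 0.024). In ExE mesoderm it was at 228, 207 and 192 CPM against 140 to 191, without overlap (0.39, adjusted p = 0.011). With Y-linked expression as a covariate neither passed, at 0.13 (adjusted p = 0.73) in ExE endoderm and 0.26 (adjusted p = 0.27) in ExE mesoderm. Without Dnmt1 KO 1 the ExE mesoderm value was 0.34 (adjusted p = 0.059), and the calls held under 20 of 28 and 24 of 27 alternatives. WT 2, the male WT embryo, held the most Atrx of the WT embryos in ExE endoderm, 74 CPM against 40.9 to 71.3 in the 6 female ones. It was inside their range in ExE mesoderm (184) and in all cells (186). WT 2 also held the most Daxx, which is not X-linked, and the least Smchd1 of the WT embryos in ExE endoderm. Its Setdb1, Zfp445 and Zfp57 were inside the range of the others there. The cells of WT 2 were the shallowest of the WT libraries, with a median of 6809 UMIs against 24175 or more. The parts of sex and depth in its Atrx value were not tested, and this 1 male WT embryo cannot tell them apart.

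Daxx, the partner of ATRX, went the other way. It was at 22.7, 16.0 and 18.8 CPM in gut against 25 to 29.7 in WT (-0.38, adjusted p = 0.047), and at 21.4, 21.6 and 18.9 CPM in pharyngeal mesoderm against 25.9 to 45 (-0.39, adjusted p = 0.026). Neither pair of groups overlapped, and the estimate was below 0 in 5 of 5 classes. The pharyngeal call held under 22 of 28 alternatives and the gut call under 9 of 26.

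**Figure D4:**
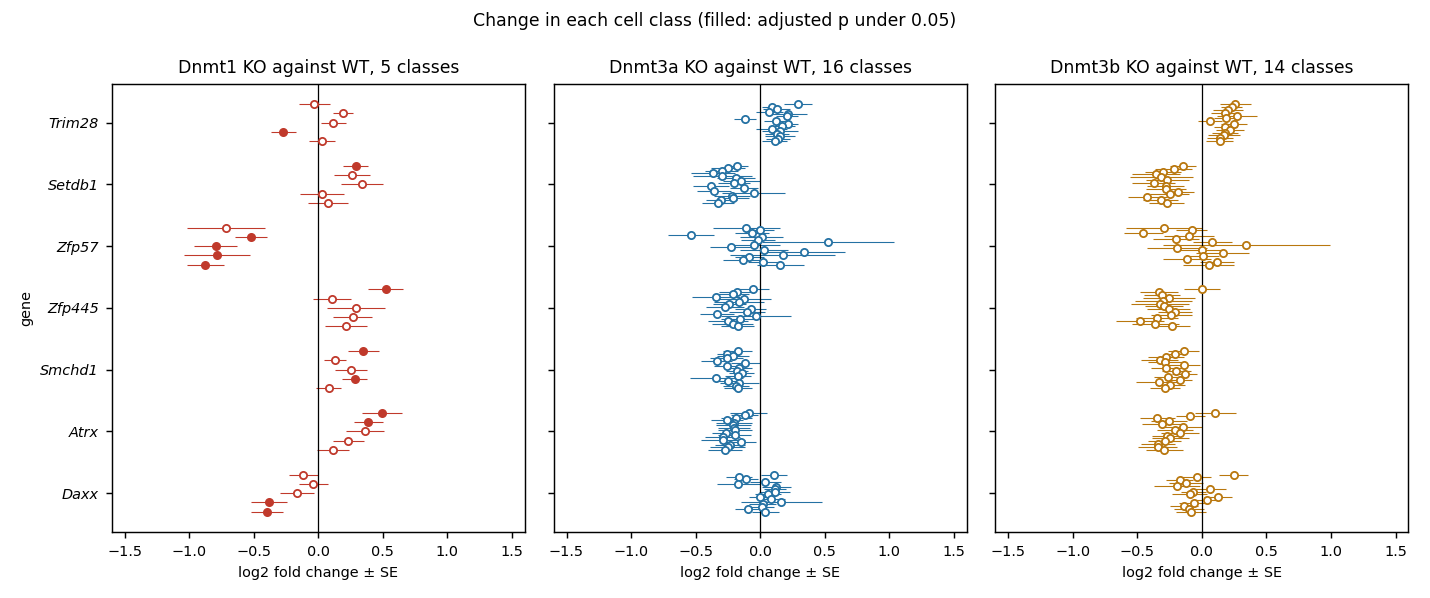
Log2 fold change of each member against WT (horizontal axis, bars are SE) in each class with enough cells, for Dnmt1 KO (5 classes), Dnmt3a KO (16) and Dnmt3b KO (14). Filled points have an adjusted p under 0.05; they occur only for Dnmt1 KO, where Zfp57 reaches -0.87 in pharyngeal mesoderm.

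The classes held different clusters of cells in the 2 genotypes. Of Dnmt1 KO cells in ExE endoderm 70.1% were in cluster 13, which held 0.416% of the WT cells, and in ExE mesoderm 99.2% were in cluster 22, which held 2.71% of the WT cells. In pharyngeal mesoderm 99.2% were in cluster 12, with 49.4% of the WT cells, and endothelium was split over clusters 10 and 18 alike in both (56.9% and 43.1% against 51.1% and 48.9%). All gut cells were in cluster 6. Within single clusters Zfp57 was lower in cluster 12 (-0.91, adjusted p = 0.00052, with 19.8% of genes called in that cluster) and in cluster 10 (-0.80, adjusted p = 0.00092, 28.7% called). Cluster 6 is the gut class itself, with 23.9% of genes called, so its calls of Zfp57, Trim28, Smchd1 and Daxx are those given above for gut.

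Outside gut, the calls of members other than Zfp57 that could be tested in a single cluster did not pass there. In cluster 12 Daxx was at -0.27 (adjusted p = 0.11). In cluster 0, the ExE endoderm cluster with 29.4% of the Dnmt1 KO and 48.6% of the WT cells of that class, 5.01% of genes were called and no member was: Setdb1 was at 0.25 (adjusted p = 0.65), Zfp445 at 0.35 (0.71), Smchd1 at 0.40 (0.12), Atrx at 0.45 (0.49) and Zfp57 at -0.97 (0.32). The estimates for Setdb1, Smchd1 and Atrx there were close to those of the whole class, with larger SEs. The part that the change of clusters has in the class values was not tested.

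To give each class the same weight whatever its number of cells, each replicate was given 1 value per member. This was the mean over the classes of the replicate of log2(CPM + 1) minus the WT mean of that class. For this value alone, CPM was taken on the UMI total scaled by the TMM factor of edgeR and not on the plain total. The mean covers 6 to 7 classes in Dnmt1 KO embryos and 13 to 16 in WT embryos, and it does not hold constant the clusters within a class. In the Dnmt1 KO embryos it includes ExE ectoderm, for which WT 2 alone gave the WT mean. For Zfp57 the Dnmt1 KO embryos ran from -0.75 to -0.45 and the WT embryos from -0.13 to 0.09, so the groups did not overlap, and the difference was -0.61. The exact two-sided permutation test gave p = 0.0167, the smallest that 3 against 7 replicates allow, and an adjusted p of 0.117 over the 21 values of 7 genes and 3 comparisons. Without ExE ectoderm, an alternative chosen after seeing the data, the difference was -0.67 with the same p. None of the 21 values passed after adjustment. The smallest p possible, 0.0167 for 3 KO replicates and 0.00606 for 4, could not pass alone among 21 values. No conclusion is therefore drawn from the lack of a pass. An unadjusted p under 0.05 was reached in Dnmt1 KO also by Zfp445 (0.31, exact p = 0.0167), Daxx (-0.19, exact p = 0.0167) and Atrx (0.30, exact p = 0.0333, but 0.05 without ExE ectoderm). It was reached in Dnmt3a KO by Smchd1 (-0.20, exact p = 0.0303) and in Dnmt3b KO by Trim28 (0.19, exact p = 0.0333, but 0.05 without ExE ectoderm).

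**Figure D5:**
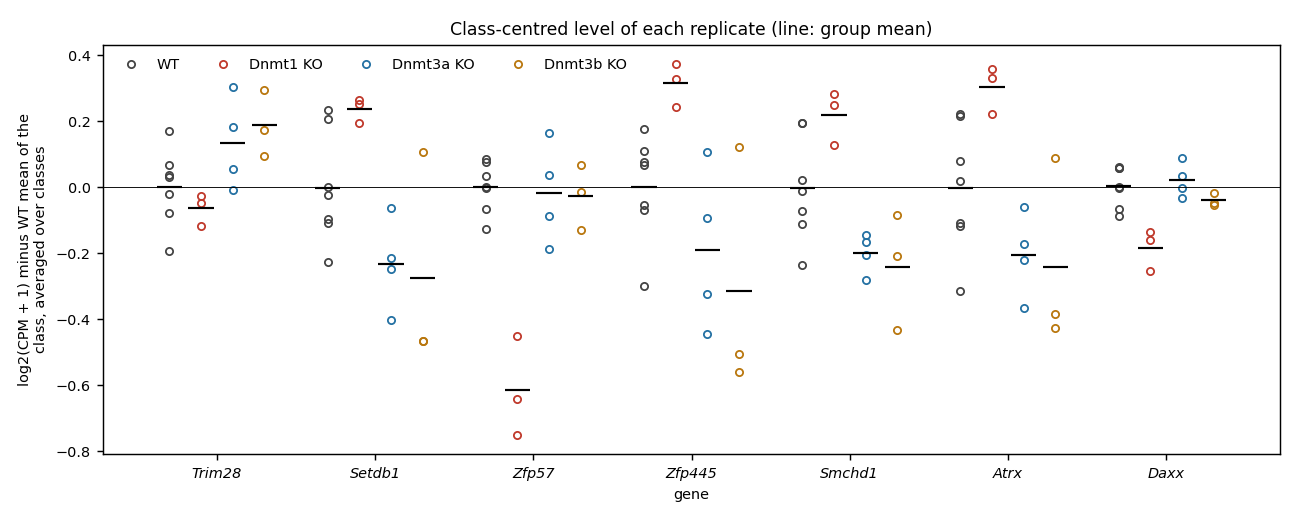
Class-centred level of each member per replicate (log2 scale, 0 is the WT mean of the class) for the 4 groups, with a line at the group mean. Zfp57 in Dnmt1 KO lies at -0.75 to -0.45, below every other replicate of any group for that gene.

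In Dnmt3a KO embryos no member passed in the whole embryo, where 0.622% of genes did, and none passed by the study's rule, met by 0.22% of genes. By edgeR 2 members had an unadjusted p under 0.05, Setdb1 and Smchd1, and DESeq2 called none. Zfp57 was at 10.7 CPM ± 1.90 (SD, n = 4) against 10.5 ± 1.36 (n = 7) in WT (log2 fold change 0.00). Trim28 was at 217 ± 20.5 against 198 ± 21 (0.12), and Daxx at 26.8 ± 2.84 against 26.3 ± 2.55 (0.01). The other 4 were lower in the mean: Setdb1 at 32.8 ± 3.22 against 39.4 ± 5.02 (-0.28), Zfp445 at 29.4 ± 6.15 against 33.9 ± 4.95 (-0.23), Smchd1 at 126 ± 16.3 against 143 ± 18.1 (-0.20) and Atrx at 163 ± 25.1 against 193 ± 34.5 (-0.26). Adjusted p ran from 0.41 to 1.0, and each gene's range overlapped that of WT.

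Within classes none of 112 pairs in 16 classes passed for Dnmt3a KO, against 0.442% of all pairs; 16 had an unadjusted p under 0.05, the smallest adjusted p was 0.146, and DESeq2 called none. The estimates of Setdb1, Zfp445, Smchd1 and Atrx were below 0 in 16 of 16 classes and those of Trim28 above 0 in 15 of 16. Zfp57 was above 0 in 8 classes and below in 8. Since the classes of an embryo share its library, these signs are not independent of each other.

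The libraries labelled Dnmt3b KO were read against the same WT embryos. In 2 of the 3 replicates, libraries 11 and 12, Dnmt3a was below every WT embryo. The Dnmt3b level cannot check the label, as said above. The values below therefore cannot be assigned to the loss of Dnmt3b. No member passed in the whole embryo, against 3.91% of genes, and none by the study's rule, against 1.91%. By edgeR 3 members had an unadjusted p under 0.05, Setdb1, Smchd1 and Zfp445, and DESeq2 called none. Zfp57 was at 10.7 CPM ± 1.07 (SD, n = 3) against 10.5 ± 1.36 in WT (0.01), Trim28 at 227 ± 7.23 against 198 ± 21 (0.17) and Daxx at 26.2 ± 2.39 against 26.3 ± 2.55 (-0.03). Setdb1 was at 32.8 ± 9.13 (-0.30), Zfp445 at 27.8 ± 8.40 (-0.32), Smchd1 at 123 ± 17.4 (-0.24) and Atrx at 163 ± 41.2 (-0.27). Adjusted p ran from 0.23 to 0.99, and each gene's range overlapped that of WT.

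Of 98 pairs in 14 classes none passed, against 1.57% of all pairs; 25 had an unadjusted p under 0.05, the smallest adjusted p was 0.105, and DESeq2 called 1, Trim28 in ExE mesoderm (0.23, adjusted p = 0.048). Trim28 was above 0 in 14 of 14 classes, Setdb1 and Smchd1 below 0 in 14 of 14, and Zfp445 and Atrx below 0 in 13 of 14. These values turned on 1 replicate. Without the replicate made of libraries 1 and 2, Setdb1 (-0.50, adjusted p = 0.0074) and Zfp445 (-0.54, adjusted p = 0.021) passed in the whole embryo. Within classes 9 pairs of Setdb1, Zfp445 and Atrx then passed, at -0.88 to -0.48. The shares of all genes and pairs called in those fits are not given, so these counts have no background beside them. Without library 11 or without library 12, in which Dnmt3a was low, 0 members and 0 pairs passed.

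The levels of Atrx, Zfp445 and Setdb1 moved with how the libraries had been counted. In the Dnmt3b KO group this split is also that by the Dnmt3a level, with libraries 11 and 12 on one side and 1 and 2 on the other, so these splits cannot be told apart there. Atrx was at 132 to 154 CPM in the 4 libraries counted on the combined reference, 1 of them WT, and at 141 in Dnmt3b KO 12, against 160 to 244 in the other 13 libraries. Zfp445 was at 22.1 to 25.9 in the 4, at 23.8 in Dnmt3b KO 12 and at 30.8 to 40.3 in the 13, and Setdb1 at 26.4 to 32.4, 28.8 and 33.3 to 46.7. For these 3 genes the 13 libraries lay above all 5 others, that is the 4 of the combined reference and Dnmt3b KO 12. The share of all genes that separate in this way was not counted, so the split cannot be called particular to these 3. Smchd1, at 113 to 127, 109 and 109 to 166, and Trim28, Zfp57 and Daxx did overlap. With the libraries counted on the mouse reference by the one Cell Ranger version alone, the Dnmt3b KO estimates of the 7 genes ran from -0.11 to 0.11, with Setdb1 at 0.02, Zfp445 at 0.01 and Atrx at -0.01; these rest on 1 replicate of that group. In Dnmt3a KO the libraries counted on mouse alone, 2 of the 4, still gave -0.27 for Setdb1, -0.26 for Smchd1, -0.23 for Atrx and -0.10 for Zfp445, with adjusted p of 0.75 to 0.96 for these genes.

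The KO groups were then compared with each other, which tests whether a change differed between them. Zfp57 was lower in Dnmt1 KO than in Dnmt3a KO by a log2 difference of -0.40 (adjusted p = 0.023) and than in Dnmt3b KO by -0.41 (adjusted p = 0.036). Smchd1 was higher in Dnmt1 KO than in Dnmt3a KO by 0.35 (adjusted p = 0.022) and than in Dnmt3b KO by 0.39 (adjusted p = 0.023). Of all genes, 35.2% differed between Dnmt1 KO and Dnmt3a KO and 29.3% between Dnmt1 KO and Dnmt3b KO, and 2 of 7 members did so in each, which is about the background. Dnmt3b KO and Dnmt3a KO did not differ in any member by edgeR or DESeq2, with 0 members at an unadjusted p under 0.05 and 0.563% of genes called. Without Dnmt1 KO 2 none of the 4 differences passed, without Dnmt3b KO 11 there were 2, and on mouse-only libraries none passed.

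The wider pathway was read from 5 lists of 41 partner genes, of which 39 were tested in the whole embryo. In Dnmt1 KO 5 were higher and 8 lower, 33.3% of the 39 (20.5% lower) against 36.9% of all genes (17.7% lower), which is about the background, with a list median of -0.06 against 0.02 over all genes. Among the 15 H3K9 methylation and KAP1 partners 1 was higher and 3 lower, among 6 HUSH and MORC genes 1 was higher, among 8 genes of H3.3 and its chaperones 1 was higher and 3 lower, among 4 partners of SMCHD1 and X inactivation 1 was higher, and among 6 other imprint protection factors 1 was higher and 2 lower. Lrif1, which joins SMCHD1 to heterochromatin of the inactive X, was at 36.5 CPM against 23.3 in WT (0.73, adjusted p = 0.00018). Chd3, a remodeller that TRIM28 recruits, was at 14.6 against 25.5 (-0.73, adjusted p = 0.00021). H3f3a, an H3.3 gene (-0.58, adjusted p = 0.0018), Asf1b, a histone chaperone (-0.68, adjusted p = 0.0019), and Cbx3, an HP1 protein that reads H3K9 methylation (-0.41, adjusted p = 0.0021), were lower.

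In Dnmt3a KO none of the 39 passed by edgeR, with a median of -0.12 against 0.01 over all genes; Uhrf1, which guides DNMT1 to replicated DNA, had the smallest adjusted p (0.26, adjusted p = 0.27). In the libraries labelled Dnmt3b KO Rbm15, a factor of Xist-mediated silencing, was lower (-0.42, adjusted p = 0.028) and no other partner passed, 2.56% of the 39 against 3.91% of all genes, with a median of -0.13 against -0.01. Spen, another factor of that pathway, was at -0.47 (adjusted p = 0.057) and Uhrf1 at 0.28 (adjusted p = 0.12).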

How the data were processed

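The deposited files hold raw UMI counts per gene and barcode, which the authors made with 10x 3' v3 chemistry and Cell Ranger. The headers of the counts give version 3.1.0 in 17 libraries and 5.0.0 in 1, whereas the paper's methods name 5.0.0. In 4 libraries the reference joined human and mouse, and only mouse genes were used. The 7 members, the partner lists and the named-gene rule (the 3 genes most like each member, of which 1 is not reported here, and the 5 partners with the smallest adjusted p) were chosen with earlier results of these data known.

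Barcodes with at least 1500 mouse UMIs (128881 of 162336), at most 30% mitochondrial and 35% ribosomal UMIs were kept (115690), and 7653 called doublets were removed. Cells were clustered with scanpy 1.11.5 and 25 of 38 clusters were named from fixed markers, so names may differ from the study's. Counts were summed per embryo, or per embryo and class with at least 25 cells, and tested with edgeR 4.0.16 (quasi-likelihood, TMM, filterByExpr, R 4.3.3) over 17 replicates in 4 groups that share the WT embryos. The Benjamini-Hochberg adjustment ran over all genes of a fit, and a gene passed at an adjusted p under 0.05. The labels give 1 embryo per library, except that the libraries labelled Dnmt3b KO 1 and 2 shared most barcodes and were merged by their rounded mean, so p-values measure the spread between embryos. The script was checked on simulated counts. DESeq2 1.42.0, other scalings, filters, covariates and left-out libraries were alternatives. Exact permutation tests used scipy 1.17.1. Counts cover sampling of molecules only, so classes of few UMIs are imprecise. Promoter sequences are from RefSeq (GRCm38.p6), matched by symbol for 7 of 7 members. The gene models name mm10; CPM values of 3' tags were not compared between genes.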

Additional observations from a re-analysis of the deposited data

Results flagged for a closer look

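Of the 126 groups of 4 to 7 embryos examined, 11 held an embryo far from the others of its group by Dixon's criterion, where chance gives about 1 in 20. In 6 of them it was WT 1, which had been counted on the combined reference, with Zfp57 in ExE mesoderm at 17 CPM, Zfp445 in the whole embryo at 24.0, in NMP at 28.9 and in hindbrain and spinal cord at 32.0, Smchd1 in hindbrain and spinal cord at 146 and Atrx in neural crest at 164. In 3 it was WT 5, the library with the fewest UMIs, with Zfp57 in pharyngeal mesoderm at 27.0 CPM, Daxx in pharyngeal mesoderm at 45 and Daxx in somitic mesoderm at 42.2. The other 2 were Trim28 in allantois of WT 3 at 179 CPM and Zfp57 in the whole embryo of Dnmt3a KO 14 at 13.5 CPM.

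Between KO groups 4 differences passed a test of the difference itself (edgeR, adjusted p under 0.05): Smchd1 in Dnmt1 KO minus Dnmt3a KO (0.35) and minus Dnmt3b KO (0.39), and Zfp57 in Dnmt1 KO minus Dnmt3a KO (-0.40) and minus Dnmt3b KO (-0.41), all as log2 differences in the whole embryo. In the libraries counted on both genomes the human genes, which no comparison used, took up to 0.00991% of the UMIs.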

How the results depend on the processing

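The count of 1 member in Dnmt1 KO whole embryos became 0 with the Y-linked covariate and after thinning, and 0 to 1 when 1 embryo was left out. The 13 member and class pairs of Dnmt1 KO became 8 with no filter on low counts, 4 with the Y-linked covariate, 7 on mouse-only libraries (chosen after seeing the data) and 5 to 15 when 1 embryo was left out: 5 without Dnmt1 KO 1, 6 without Dnmt1 KO 2 or 3 and 8 without WT 1 or WT 7. With 1 embryo left out the Dnmt3a KO pairs ran from 0 to 1 (Smchd1 in ExE mesoderm without WT 1, -0.29, adjusted p = 0.038), the members called in Dnmt3b KO from 0 to 2 and its pairs from 0 to 9, and DESeq2 gave 1 such pair. The 4 differences between KO groups became 2 with no filter, 2 after thinning, 0 on mouse-only libraries, 1 on those without Dnmt3b KO 12, and 0 to 6 when 1 embryo was left out. The shares of all genes and pairs called under these alternatives are not given here. The changes in count therefore cannot be called particular to the members. No value changed sign past its threshold. Zfp57 in Dnmt1 KO whole embryos passed under 27 of 31 alternatives; over all 31 the value ran from -0.52 to -0.31 and the adjusted p from 0.0031 to 0.095. The cause of these shifts was not tested. Depth limits Zfp57 most, at 7 to 12 UMIs per Dnmt1 KO embryo in gut.

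Embryos with the same number in different groups came from no stated shared litter, and the correlations of their deviations ran from -0.22 to 0.19 over 13 pairs, with 3 over 0.1, so the numbers do not pair them. With the replicate block fitted all the same, 0 members passed in Dnmt1 KO whole embryos, 4 pairs in its classes and 0 differences between KO groups, while of all genes 3718 were called for Dnmt1 KO, 2 for Dnmt3a KO and 35 for Dnmt3b KO. That fit also keeps the libraries labelled Dnmt3b KO 1 and 2 apart; the same fit without the block called 6843, 99 and 785.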

Other observations

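Partner genes were also read within the 5 classes of Dnmt1 KO embryos, where 38 of the 41 were tested. Of their 190 gene and class pairs 40 passed as higher (21.1%) and 16 as lower (8.42%), 29.5% in all, against 13.7% higher, 14.2% lower and 27.9% in all over the tested genes, so the share in all is about the background. The genes named here were chosen after their values were seen. Atf7ip, the SETDB1 partner that protects it from degradation, was higher in 5 of 5 classes, by 0.39 to 0.78 on the log2 scale, and in the whole embryo (0.48, adjusted p = 0.013). Lrif1, Suv39h2, a second H3K9 methyltransferase, and H3f3b, an H3.3 gene, were each higher in 4 of 5 classes, Asf1b was lower in 4 of 5 and Chd3 in 3 of 5. Cbx3 and H3f3a, named above as lower in the whole embryo, were lower in 2 of 5 and in 1 of 5 classes.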
